A study of Mus musculus with 32 samples.

Results

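The regions described here are 2430 of the 10121 PRDM9 peaks of RJ2 mice, those in the lower part of the deposited peak list that carry both marks of an active recombination hotspot. They were chosen by 3 measured values. A peak had to stand after position 5060 in the list, its interval had to overlap by at least 1 bp the central 400 bp of an RJ2 DMC1 interval, and RJ2-specific H3K4me3 had to cover at least 10% of it, with H3K4me3 common to RJ2 and B6 covering less than 10%. These peaks are called low-listed hotspots below. They were 48.0% (95% Clopper-Pearson interval 46.6 to 49.4%) of the peaks after position 5060, which are called low-listed, while 63.1% of the whole list carried both marks by the same rule. The 3961 peaks with both marks at positions 1 to 5060, called top-listed hotspots, and the 1898 low-listed peaks with no DMC1 overlap and less than 10% coverage by H3K4me3 of either kind serve as comparisons. List position, DMC1 and H3K4me3 fixed the membership, so the counts by these values are descriptions.

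PRDM9 binds DNA through an array of zinc fingers and trimethylates histone H3 on lysine 4 (H3K4me3) at nucleosomes beside its binding site. SPO11 then cuts the DNA of early meiotic cells near some of these sites, and DMC1, a meiotic recombinase, coats the single-stranded ends before they are repaired from the homologous chromosome. Zinc finger arrays differ between Prdm9 alleles, and each array prefers its own DNA motif.

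RJ2 mice, strain B10.MOLSGR(A)-(D17Mit58-D17Jcs11)/Bdm on a C57BL/10 background, express PRDM9 Cst, and the C57BL/6JOlaHsd (B6) mice compared with them express PRDM9 Dom2. PRDM9 was mapped by ChIP-seq in whole testis at 13 days post-partum, with 2 replicates per strain, in 1 replicate of Prdm9 knockout mice (B6;129P2-Prdm9tm1Ymat/J) and in 2 replicates of Spo11tm1M mice. Testes of several mice were pooled for each PRDM9 ChIP. DMC1 was mapped in whole testis at 5 weeks, also with 2 replicates per strain. H3K4me3 came from 1 ChIP per strain on elutriated pachytene cells of adults, so the 3 marks were read in different mice, ages and cell mixtures. The authors deposited 1 interval list per mark and strain, pooled over replicates and without scores or read counts. The depth behind a single interval is therefore unknown, and no value per mouse can be given. Intervals below cover the counting of peaks only. Of 10 germ cell marker genes, 8 had common H3K4me3 over an annotated transcription start and 1 more, Mael, had RJ2-specific H3K4me3, whereas 0 of 4 Sertoli cell, 0 of 4 Leydig cell and 0 of 3 blood cell markers found in the annotation had either. Of all 22238 protein-coding genes, 40.2% had common and 2.72% RJ2-specific H3K4me3 over a start. The Sertoli cell marker Rhox5 was not found in the annotation and not scored.

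The order of the list is taken as the ranking of the peaks, since the deposited file does not name it. Among peaks with both marks, the median width of the PRDM9 interval was 1046 bp in the first of 20 equal stretches of the list, 541 bp in the stretch that ends at position 5060, 530.5 bp in the stretch after it and 338.5 bp in the last. The stretches on either side of position 5060 thus differed by less than the list did from end to end. The last top-listed hotspot, at position 5059, had a PRDM9 interval of 512 bp, a DMC1 interval of 1566 bp and an H3K4me3 interval of 1400 bp. The first low-listed hotspot, at the position after 5060, had intervals of 504, 1728 and 1248 bp. The next 2, at positions 5063 and 5064, lie in introns of Ncam1, the gene of a neural cell adhesion molecule, and Klhl29, with PRDM9 intervals of 446 and 572 bp and DMC1 intervals of 1720 and 1750 bp. The H3K4me3 limit cut through no dense range of values. The lowest coverage in any low-listed hotspot was 19.9%, on chromosome 8 at chr8:53251647-53251957, and 0 of the 2517 low-listed peaks with a DMC1 overlap and less than 10% common H3K4me3 had an RJ2-specific coverage above 0 and below 10%. Coverage was complete in 2152 of the 2430 (88.6%, interval 87.2 to 89.8%), against 88.2% of top-listed hotspots and 58.2% of the whole RJ2 list.

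A motif of 25 bp was learned without the low-listed hotspots, from the central 200 bp of 2061 top-listed hotspots on odd-numbered chromosomes. Starting from the word AGGTCACA, it settled on NNAANNGNCANANNCCNAGNCNNNN, in which a letter stands where that base held at least 60% of the aligned sequences and N stands for any base. A match is a score at or above the level that 5% of flanking windows of the training peaks reach on either strand, and the score is the sum of log2 ratios of base frequencies to background. A match is a likeness in sequence and does not show that PRDM9 sat on it. The 10 low-listed hotspots with the highest scores show what the best matches look like. They are printed on the strand of the match, 5′ to 3′, from the mm9 reference sequence (NCBIM37), with the 25 bp match in capitals and 20 bp on each side. The reference is not the genome of the RJ2 mice, whose own sequence was not read here.
Position 8183, chr5:4397199-4397263, plus strand: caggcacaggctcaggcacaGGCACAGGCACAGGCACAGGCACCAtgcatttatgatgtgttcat
Position 8710, chr2:130286099-130286163, minus strand: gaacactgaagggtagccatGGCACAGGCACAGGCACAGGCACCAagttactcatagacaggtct
Position 6312, chr10:128118856-128118920, plus strand: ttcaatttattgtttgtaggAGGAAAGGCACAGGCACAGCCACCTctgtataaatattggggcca
Position 5869, chr2:61454065-61454129, minus strand: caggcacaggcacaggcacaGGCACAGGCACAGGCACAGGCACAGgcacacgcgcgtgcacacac
Position 6970, chr13:6411576-6411640, plus strand: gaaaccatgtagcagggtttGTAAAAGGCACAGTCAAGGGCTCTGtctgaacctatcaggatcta
Position 5712, chr17:48559997-48560061, minus strand: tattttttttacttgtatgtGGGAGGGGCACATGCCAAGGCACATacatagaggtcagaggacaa
Position 6445, chr6:141602661-141602725, minus strand: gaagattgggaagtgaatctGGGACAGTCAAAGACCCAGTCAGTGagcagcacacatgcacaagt
Position 6185, chr12:85974872-85974936, plus strand: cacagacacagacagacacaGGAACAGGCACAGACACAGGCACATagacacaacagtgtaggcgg
Position 6568, chr11:104127261-104127325, minus strand: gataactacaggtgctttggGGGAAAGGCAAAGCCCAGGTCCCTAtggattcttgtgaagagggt
Position 10070, chr16:23819250-23819314, plus strand: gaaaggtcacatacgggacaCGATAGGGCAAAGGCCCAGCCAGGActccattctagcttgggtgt
The matches at positions 8183 and 8710, on chromosomes 5 and 2, had the same 25 bases and the same score of 24.3. In 4 of the 10 matches, at positions 8183, 8710, 6312 and 5869, the letters GGCACA repeat in tandem as GGCACAGGCACA. Such repeats were rare among all low-listed hotspots. The doubled unit GGCACAGGCACA, searched on both strands after these sequences had been seen, occurred in the central 200 bp of 8 of 2430 (0.329%, interval 0.142 to 0.648%), of 9 of 3961 top-listed hotspots (0.227%) and in 0.0115% of 12778424 windows of 200 bp across the genome.

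The last 3 low-listed hotspots, at positions 10110, 10113 and 10116, lie in an intron of Sephs1, between genes on chromosome 1 and in an intron of Ctnna2, the gene of a neuronal catenin. Their central 200 bp are printed to show a window with and without a match, again with matches in capitals.
Position 10110, chr2:4823410-4823609, plus strand: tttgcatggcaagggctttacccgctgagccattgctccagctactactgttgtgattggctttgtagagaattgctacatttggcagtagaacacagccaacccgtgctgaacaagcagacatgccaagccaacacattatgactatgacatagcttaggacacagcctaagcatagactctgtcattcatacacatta
Position 10113, chr1:191024066-191024265, minus strand: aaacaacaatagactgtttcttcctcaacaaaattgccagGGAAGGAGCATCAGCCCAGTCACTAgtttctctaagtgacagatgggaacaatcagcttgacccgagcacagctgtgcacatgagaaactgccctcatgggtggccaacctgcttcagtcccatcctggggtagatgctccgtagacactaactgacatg
Position 10116, chr6:77677913-77678112, minus strand: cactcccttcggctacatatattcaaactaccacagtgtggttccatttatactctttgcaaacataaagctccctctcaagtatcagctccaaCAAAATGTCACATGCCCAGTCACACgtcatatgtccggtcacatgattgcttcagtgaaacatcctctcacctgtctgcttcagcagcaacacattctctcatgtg
The last of these, at position 10116, scored 20.2, above the median of 15.7 for all matches in low-listed hotspots. The one at position 10113 scored 11.9, and the best score at position 10110 was 5.72, below the limit of 9.41. The lowest best scores of all, -8.52 and -6.65, belonged to positions 5831 and 6343, in introns of Ccdc47 and Wdr41, and their central 200 bp are shown as sequences without any match.
Position 5831, chr11:106069370-106069569, plus strand: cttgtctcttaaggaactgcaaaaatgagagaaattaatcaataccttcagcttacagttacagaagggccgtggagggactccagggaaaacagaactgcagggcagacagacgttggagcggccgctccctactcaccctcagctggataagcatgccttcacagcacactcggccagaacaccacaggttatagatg
Position 6343, chr13:95775523-95775722, plus strand: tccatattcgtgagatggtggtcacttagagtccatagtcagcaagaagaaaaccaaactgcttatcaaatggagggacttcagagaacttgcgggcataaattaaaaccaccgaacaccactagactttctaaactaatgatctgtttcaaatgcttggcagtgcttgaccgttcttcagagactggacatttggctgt
These scores are for the central 200 bp of PRDM9 intervals 664 and 559 bp wide. Both sites had DMC1 and RJ2-specific H3K4me3 because the rule requires them. The DMC1 centres lay 8 bp and 92 bp from the PRDM9 centre. The DMC1 intervals were 1384 and 1578 bp wide and the H3K4me3 intervals 977 and 1101 bp.

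A motif match in the central 200 bp was found in 1746 of 2430 low-listed hotspots (71.9%, interval 70.0 to 73.6%). Across the whole RJ2 list the share was 49.6%, and among windows of 200 bp of chromosomes 1 to 19 and X it was 4.93%. Low-listed peaks without either mark had a match in 144 of 1898 cases (7.59%, interval 6.44 to 8.87%), so the hotspots' share was 64.3 percentage points higher (Newcombe 95% interval 62.0 to 66.3). Both sets come from the same rows of the list and had similar PRDM9 widths, with medians of 451 and 440 bp. In windows of 50 bp the low-listed hotspots had a match in 34.7% at the PRDM9 centre, in 7.94% at 100 bp upstream of it along the reference, in 1.85% at 300 bp downstream and in 2.10% at 1000 bp. Unmarked low-listed peaks stayed between 1.74 and 2.74% at 0, 100, 200, 300 and 1000 bp on either side, and the centre was not their highest point.

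**Figure D1:**
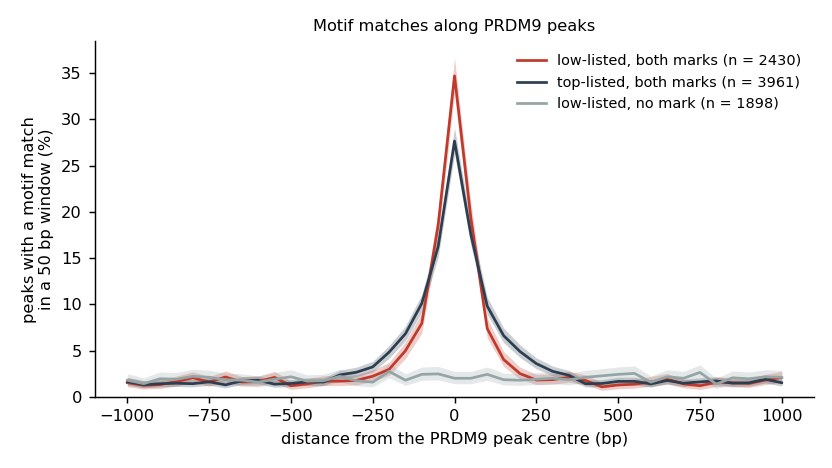
Share of PRDM9 peaks with a motif match in windows of 50 bp, by distance from the peak centre in bp, for 2430 low-listed hotspots (red), 3961 top-listed hotspots (dark) and 1898 low-listed peaks without either mark (grey), with shaded 95% Clopper-Pearson intervals. The red line peaks at 34.7% and the dark line at 27.6% at the centre, the dark line lies above the red one at 200 bp on either side, and the grey line shows no peak.

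Where a match was present in the central 200 bp, it lay a median of 28 bp from the PRDM9 centre (interval of the median 26 to 29 bp), and 76.3% of matches (74.2 to 78.3%) were within 50 bp. The median in top-listed hotspots was 32 bp (30 to 33 bp), with 69.9% of matches (68.1 to 71.7%) within 50 bp. These pooled values mix PRDM9 widths, and the order turned in peaks of equal width. Among peaks 400 to 499 bp wide, the best match in the whole interval lay a median of 29 bp (27 to 32 bp) from the centre in low-listed hotspots. In top-listed hotspots of that width it lay 22 bp (20 to 25 bp) away. Other widths are given below. The match was on the plus strand of the reference in 855 of 1746 low-listed hotspots (49.0%, interval 46.6 to 51.3%). More than 1 match in the PRDM9 interval was found in 293 low-listed hotspots (12.1%, interval 10.8 to 13.4%) and in 22.0% (20.7 to 23.3%) of top-listed hotspots, whose intervals are wider.

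The matches were compared base by base on even-numbered chromosomes and X, where neither set had been used to learn the motif. These chromosomes held 862 low-listed and 1220 top-listed hotspots with a central match. Matches in both sets gave the same letters, NNAANNGNCANANNCCNAGNCNNNN, and the same leading base at 25 of 25 positions, although matches are picked by the motif and so tend to share its letters. The leading base was less frequent in the low-listed hotspots at positions 19 and 23 and more frequent at position 15, by intervals that did not hold 0, and the interval held 0 at the other 22. At position 23, C held 45.7% in low-listed and 50.8% in top-listed hotspots. At position 15, C held 66.9% and 62.5%. Scores were lower in the low-listed hotspots, with a median of 15.9 (interval 15.6 to 16.1) against 17.2 (16.9 to 17.4). Split at the quartiles of the top-listed scores, 34.6% of low-listed matches (31.4 to 37.9%) fell in the lowest 25% and 13.2% in the highest 25%. Over all chromosomes, training peaks included, the medians were 15.7 and 17.1.

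Pooled over all widths, low-listed hotspots had a match in the central 200 bp more often than top-listed hotspots, in 71.9% against 62.9% (61.4 to 64.4%), a difference of 8.94 percentage points (interval 6.58 to 11.3). This difference turned with the part of the interval searched and with the width of the peaks. In the whole PRDM9 interval the low-listed share was 87.7% (86.4 to 89.0%) and the top-listed share 93.2% (92.4 to 94.0%), a difference of -5.47 points (-7.03 to -3.98). At a stricter limit, reached by 1% of flanking windows, the difference in the central 200 bp was 1.25 points, with an interval of -1.27 to 3.76. Among peaks 400 to 499 bp wide, 83.7% of 823 low-listed and 83.2% of 410 top-listed hotspots had a central match, a difference of 0.547 points (-3.71 to 5.13). Among peaks of 500 to 599 bp the shares were 67.2% of 457 and 86.9% of 773, a difference of -19.8 points (-24.7 to -14.9). Among peaks of 600 to 699 bp they were 42.3% of 213 and 74.5% of 685, a difference of -32.2 points (-39.4 to -24.7). Only 35 top-listed hotspots were 300 to 399 bp wide, and there the interval of the difference held 0 (-16.8 to 3.67). The motif was learned on 2061 of these top-listed hotspots, so the bands were also compared on even-numbered chromosomes and X alone. There the differences were -9.98 points (-17.8 to 9.10) at 300 to 399 bp, -6.28 (-11.9 to 0.175) at 400 to 499 bp, -21.3 (-28.5 to -14.3) at 500 to 599 bp and -29.0 (-39.1 to -18.3) at 600 to 699 bp.

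**Figure D2:**
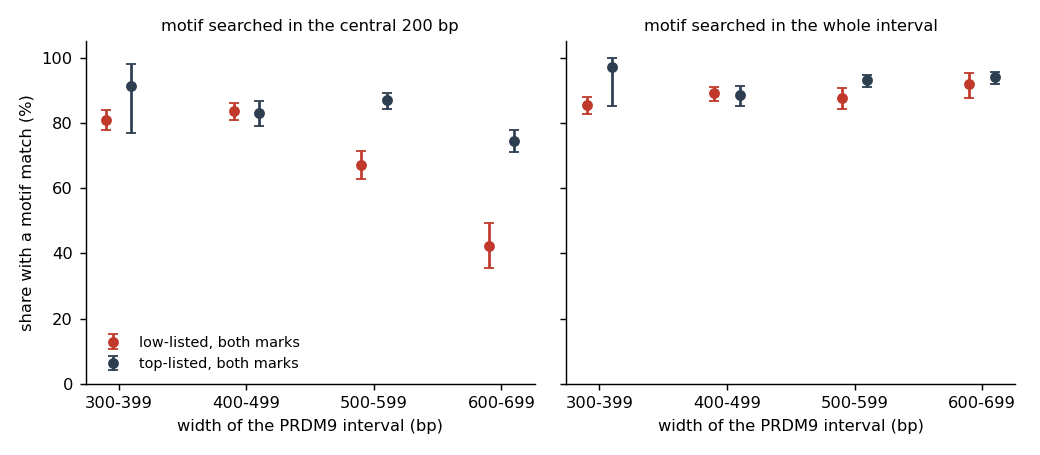
Share of hotspots with a motif match in the central 200 bp (left) and in the whole PRDM9 interval (right), by the width of the PRDM9 interval in bp, for low-listed (red) and top-listed (dark) hotspots, with bars for 95% Clopper-Pearson intervals. In the left panel the red share falls to 42.3% at 600 to 699 bp where the dark share is 74.5%, and in the right panel all red points lie between 85.5 and 92.0%.

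In the 2 wider bands the shares over the whole interval lay closer together than those in the central 200 bp. Of the low-listed hotspots 500 to 599 bp wide, 401 of 457 (87.7%, interval 84.4 to 90.6%) held a match somewhere in the interval, against 93.1% of top-listed ones, a difference of -5.40 points (-9.08 to -2.04). Of those 600 to 699 bp wide, 196 of 213 (92.0%, interval 87.5 to 95.3%) held one, against 94.0% of top-listed hotspots of the same width, a difference of -2.00 points (-6.68 to 1.58). The best match lay a median of 98 bp from the PRDM9 centre in these low-listed peaks (88 to 110 bp) and 49 bp (44 to 54 bp) in the top-listed ones. In peaks of 500 to 599 bp the medians were 56 bp (52 to 63 bp) and 24 bp (22 to 27 bp). In the narrowest band, 300 to 399 bp, the low-listed median was 22 bp (20 to 24 bp). The top-listed median there, over only 34 hotspots with a match, was 28.5 bp (18 to 49 bp).

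The share with both marks fell along the list, while the share with a central motif among the peaks with both marks did not. In 20 equal stretches, both marks were found on 91.1% of the first 506 peaks (88.3 to 93.4%), on 60.1% (55.7 to 64.4%) of the first stretch after position 5060 and on 32.3% (28.3 to 36.6%) of the last. Among the peaks with both marks, a match in the central 200 bp was found in 57.3% of the first stretch (52.6 to 61.8%), in 72.0% (66.6 to 77.0%) of the stretch after position 5060 and in 77.4% (70.3 to 83.6%) of the last. The median PRDM9 width of these peaks fell from 1046 bp in the first stretch to 338.5 bp in the last. In the whole PRDM9 interval the share was lower in low-listed than in top-listed hotspots, 87.7% against 93.2%. Among the low-listed hotspots alone, cut into 5 equal groups of 486 in list order, the share was 69.1, 68.5, 68.9, 76.7 and 75.9%. The shares of the first 3 groups lay within each other's intervals, and so did those of the last 2.

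**Figure D3:**
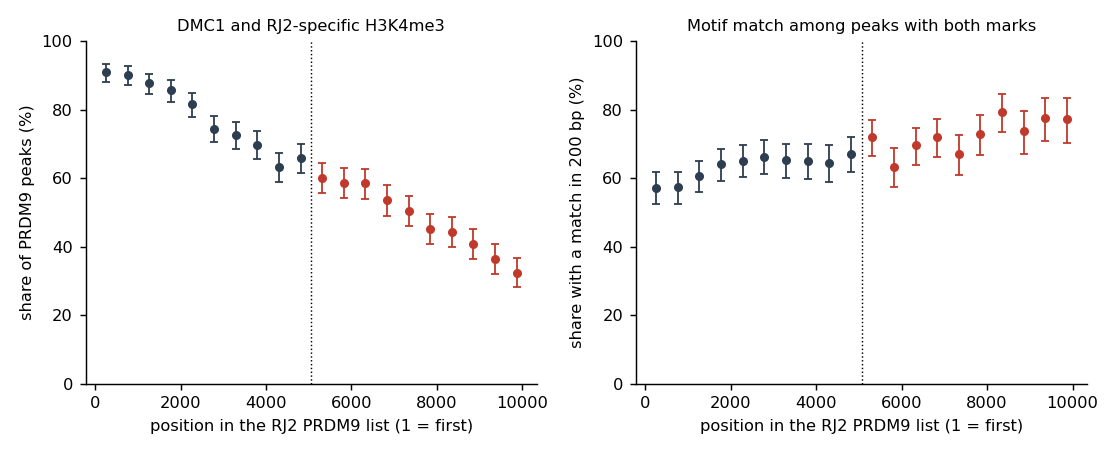
Share of RJ2 PRDM9 peaks with both marks (left) and share of those with a motif match in the central 200 bp (right), in 20 equal stretches of the list by position, with 95% Clopper-Pearson intervals. The dotted line marks the start of the low-listed peaks, and red points lie after it. The left share falls from 91.1 to 32.3% and the right share goes from 57.3 to 77.4%.

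No low-listed hotspot shared its DMC1 interval with another low-listed hotspot, so that the 2430 account for 2430 of 15195 RJ2 DMC1 intervals (16.0%). The DMC1 centre fell inside the PRDM9 interval in 2259 of the low-listed hotspots (93.0%, interval 91.9 to 93.9%). This share was 97.8% in top-listed hotspots, whose PRDM9 intervals are wider, and 64.7% in the whole list, which includes peaks without DMC1. A single DMC1 interval was shared with a top-listed hotspot, in an intron of Iqsec1. There position 5367 (chr6:90681228-90681741) and the top-listed position 2131, with centres 693 bp apart, lay under a DMC1 interval of 2342 bp and an H3K4me3 interval of 2241 bp. The DMC1 intervals of low-listed hotspots had a median width of 1706 bp (interval 1696 to 1716 bp, quartiles 1566 and 1862 bp), and those of top-listed hotspots 1846 bp (1838 to 1854 bp). The 15195 RJ2 DMC1 intervals together had a median of 1698 bp. Of the low-listed hotspots, 14.7% (13.3 to 16.1%) used a DMC1 interval among the narrowest 20% of that whole list and 17.8% (16.3 to 19.4%) one among the widest 20%, where the top-listed shares were 4.32 and 35.7%.

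DMC1 width hardly followed the list within the low-listed hotspots. Its median was 1738 bp in the first of the 5 groups (1710 to 1754 bp) and 1674 bp in the last (1652 to 1698 bp), with a Spearman rho of -0.07 with list position over the 2430 sites. The PRDM9 interval narrowed from 529 to 366 bp over the same groups, with rho of -0.56, which restates the ranking. The widest DMC1 interval, 3600 bp, lay at position 6596 between genes on chromosome 4 (chr4:124993838-124994445), with another RJ2 PRDM9 peak 1107 bp away. The narrowest, 854 bp, lay at position 8808 (chr11:57994237-57994654), where H3K4me3 covered 39.2% of the peak and the motif scored 18.6. PRDM9 and DMC1 centres were a median of 81 bp apart (77 to 85 bp), a distance that the rule limits. In hotspots with a match, the match was a median of 64 bp (60 to 67 bp) and the PRDM9 centre 73 bp (70 to 76 bp) from the DMC1 centre, and the match was the nearer in 56.4% (54.0 to 58.7%) of 1746 sites.

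H3K4me3 intervals were also narrower at low-listed hotspots. The RJ2-specific H3K4me3 interval had a median width of 1148 bp at low-listed hotspots (1131 to 1164 bp, quartiles 951 and 1367 bp) and of 1560 bp at top-listed hotspots (1544 to 1573 bp). The whole RJ2-specific list of 24185 intervals had a median of 780 bp and held intervals down to 1 bp. The coverage rule favours wide intervals in both hotspot sets, which limits any comparison with that list. The widest 20% of the list, above 1276 bp, supplied the interval of 35.2% of low-listed hotspots (33.3 to 37.1%) and of 76.4% (75.1 to 77.8%) of top-listed ones. The DMC1 interval was the wider of the pair in 96.2% of low-listed (95.3 to 96.9%) and in 77.5% (76.2 to 78.8%) of top-listed hotspots. Along the 5 groups of low-listed hotspots the H3K4me3 median went from 1208 bp (1164 to 1239 bp) to 1066.5 bp (1040 to 1092 bp), with rho of -0.18 with list position, and DMC1 and H3K4me3 widths had rho of 0.25 over the 2430 sites. These correlations come from pooled lists and carry no test.

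**Figure D4:**
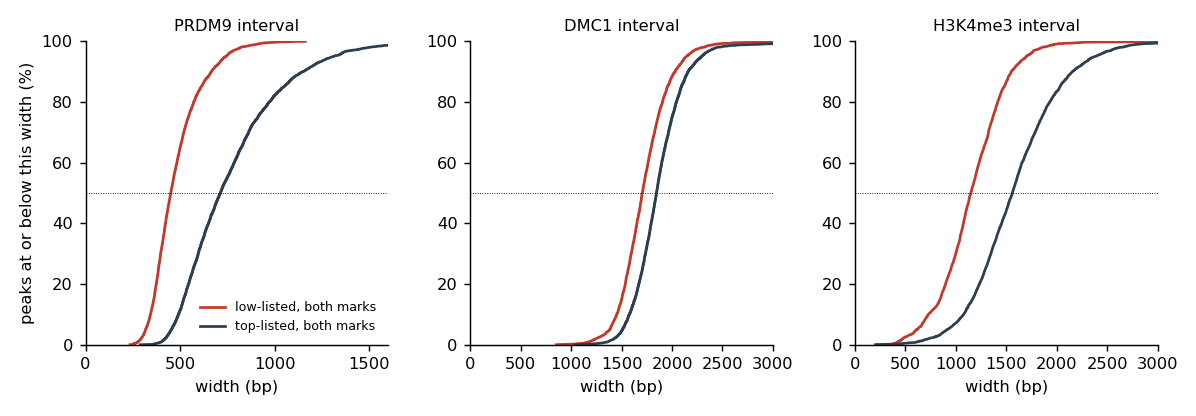
Cumulative share of hotspots by width in bp of the PRDM9 interval (left), of the DMC1 interval (middle) and of the RJ2-specific H3K4me3 interval (right), for low-listed (red, n = 2430) and top-listed (dark, n = 3961) hotspots. The dotted line marks 50%. The red medians are 451, 1706 and 1148 bp, and the dark medians are 713, 1846 and 1560 bp.

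The widest H3K4me3 interval at a low-listed hotspot, 4518 bp, belonged to position 6397 in an intron of Nr3c2, the mineralocorticoid receptor gene (chr8:79428667-79429440), 2679 bp from a transcription start. The narrowest, 200 bp, covered 37.5% of the peak at position 8928 in an intron of Ispd. More than 1 RJ2-specific interval touched 40 low-listed hotspots (1.65%). With the match as the origin and its 5′ to 3′ direction as the axis, H3K4me3 reached a median of 593 bp on the 5′ side (581 to 600 bp) and 612 bp on the 3′ side (602 to 622 bp). The 5′ arm was the longer in 45.8% of low-listed hotspots with a match (43.5 to 48.2%) and in 46.9% (44.9 to 48.9%) of the top-listed ones, both intervals lying below 50%. The match itself lay inside the H3K4me3 interval in 1721 of 1746.

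**Figure D5:**
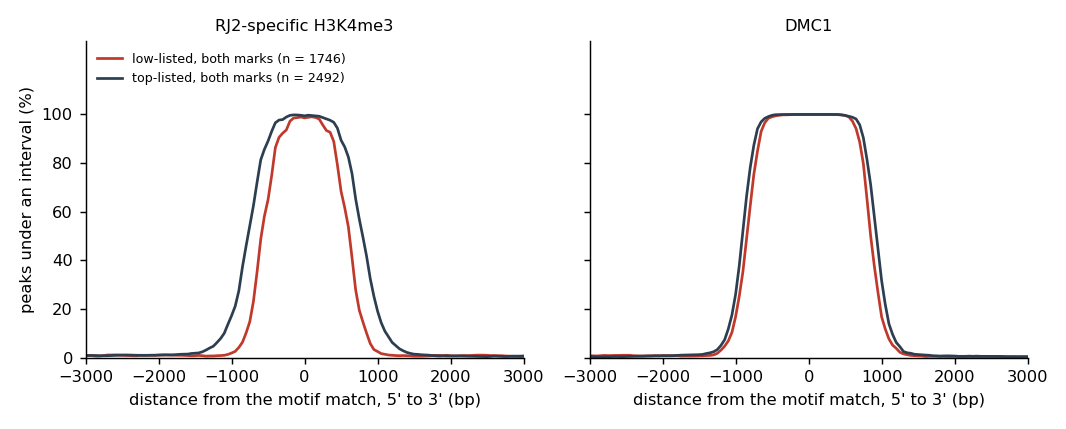
Share of hotspots under an RJ2-specific H3K4me3 interval (left) and under a DMC1 interval (right), by distance in bp from the motif match read 5′ to 3′, for 1746 low-listed (red) and 2492 top-listed (dark) hotspots with a match. At 500 bp the red H3K4me3 share is 64.9% on the 5′ side and 68.4% on the 3′ side, while the red DMC1 share is 99.0 and 99.5%.

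Within the low-listed hotspots, motif score had almost no rank correlation with the marks. Over the 1746 with a match, the score had rho of -0.02 with list position, 0.01 with DMC1 width and 0.01 with H3K4me3 width. In 4 equal groups by rising score, the median DMC1 width was 1673, 1728, 1705 and 1702 bp and the median H3K4me3 width 1137, 1171, 1172.5 and 1160 bp. The 684 low-listed hotspots without a central match had DMC1 intervals of median 1709 bp (1694 to 1728 bp), against 1703 bp (1692 to 1718 bp) with a match. Their H3K4me3 median was 1114.5 bp (1082 to 1149 bp) against 1160 bp (1139 to 1180 bp), with intervals that overlap. They were wider in PRDM9, 539 bp (522 to 558 bp) against 433 bp (427 to 438 bp), and their DMC1 centre was farther off, 111 bp (102 to 123 bp) against 73 bp. A match anywhere in the PRDM9 interval was found in 2132 of the 2430 low-listed hotspots, against 1746 in the central 200 bp. Many of the 684 thus held a match outside the central 200 bp and are not sites without the motif.

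Low-listed hotspots were spread over every chromosome from 1 to 19 and X, at 0.741 per Mb on chromosome 7 to 1.17 per Mb on chromosome 9 among the autosomes, and at 0.354 per Mb on X. Neighbouring low-listed hotspots were a median of 638 kb apart. Of 2410 neighbouring pairs 8 were under 5 kb apart. The closest, 1766 bp between centres, joined positions 5301 and 9799 (chr5:140114647-140115231 and chr5:140116542-140116867), each at its own DMC1 interval, of 1814 and 1580 bp. On the X chromosome, most of which has no partner to pair with in male meiosis, 59 of 913 DMC1 intervals (6.46%, interval 4.96 to 8.26%) lay at a low-listed hotspot, against 16.6% (16.0 to 17.2%) of the 14282 on autosomes, a difference of -10.1 points (-11.7 to -8.26). Top-listed hotspots accounted for 6.13% of X and 27.3% of autosomal DMC1 intervals.

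The 59 low-listed hotspots on X differed from the 2371 on autosomes in several measures. Their PRDM9 interval was narrower, with a median of 356 bp (330 to 372 bp) against 454 bp (448 to 460 bp). Their DMC1 interval was wider, 1912 bp (1860 to 2002 bp) against 1700 bp (1692 to 1712 bp). The intervals of the H3K4me3 medians overlapped, at 1172 bp (1097 to 1317 bp) against 1147 bp (1131 to 1163 bp). A central motif match was present in 54 of 59 (91.5%, interval 81.3 to 97.2%), 20.2 points more than the 71.4% on autosomes (10.1 to 25.3). The central share varies with PRDM9 width, from 81.0% of all low-listed hotspots 300 to 399 bp wide to 42.3% at 600 to 699 bp. X and autosomes were not compared at equal width. The top-listed hotspots on X, 56 in number, showed differences in the same directions, with a match in 92.9%, a PRDM9 median of 473.5 bp against 717 bp and a DMC1 median of 2091 bp against 1844 bp on autosomes. Over all RJ2 DMC1 intervals the median widths lay closer, at 1714 bp on X (1690 to 1740 bp) and 1696 bp on autosomes (1692 to 1702 bp). The 785 X intervals at no RJ2 PRDM9 peak had a median of 1678 bp (1656 to 1698 bp). Of the RJ2 PRDM9 peaks with both marks, 51.3% (41.8 to 60.7%) were low-listed on X and 37.8% (36.6 to 39.0%) on autosomes.

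Few low-listed hotspots lay near transcription starts. Within 1 kb of an annotated start (GENCODE vM1) lay 86 of 2430 (3.54%, interval 2.84 to 4.35%), and 9.82% of the whole RJ2 list. The top-listed share was 4.42%, a difference of -0.879 points (-1.83 to 0.128). Among unmarked low-listed peaks it was 11.6%, a difference of -8.10 points (-9.76 to -6.52). Peaks under common H3K4me3, which marks active promoters, are left out by the rule in both hotspot sets and among unmarked peaks. By the place of the PRDM9 centre, 1179 were intronic (48.5%), 1148 intergenic (47.2%) and 103 exonic (4.24%). These lay near the shares of the whole RJ2 list, 48.9, 45.3 and 5.85%, and of top-listed hotspots, 47.5, 47.8 and 4.75%. The 86 near starts had a central match in 69.8% (58.9 to 79.2%) and a median H3K4me3 width of 1102 bp (1029 to 1243 bp).

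The start of a protein-coding gene lay inside the PRDM9 interval of 3.45% of the whole RJ2 list. It did so in 1.87% (1.47 to 2.34%) of top-listed hotspots and in 15 low-listed hotspots (0.617%, interval 0.346 to 1.02%). The first 8 in list order were at Sgpl1 (sphingosine-1-phosphate lyase), Arap1, Cdh23 (a cadherin of inner ear hair cells), A230072I06Rik, Klhl8, Slk (a protein kinase), Olfr351 (an odorant receptor) and Nelf. Central matches were present at Arap1, A230072I06Rik and Klhl8, with scores of 14.4, 18.5 and 19.8, and the others scored between -2.50 and 4.50. All 8 carried RJ2-specific H3K4me3 of 600 to 1943 bp, and the narrowest of these was at Cdh23 (chr10:60059297-60059706). The starts are those of annotated transcripts, and their use in testis was not measured here.

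A low-listed hotspot lay inside the gene or within 1 kb of a start for 4.96% of all 22238 protein-coding genes. A list of meiotic breaks and their repair gave 28 different genes found in the annotation, of which 1 had a low-listed hotspot, and a list of the chromosome axis and synapsis gave 18, also with 1. With lists this short, a single gene in each is near the share of all genes. In the list of breaks and repair it was Brca1, which acts in homologous repair, with the intronic position 8055 (chr11:101361397-101361780), a match of score 18.4, a DMC1 interval of 1452 bp and an H3K4me3 interval of 1315 bp. In the other list it was Meikin, a meiotic kinetochore factor and not itself part of the axis or the synaptonemal complex, with the intronic position 8208 (chr11:54208300-54208660), a match of score 12.9 and intervals of 1464 and 1289 bp. Both sites lay about 8 kb from a start, at 7903 and 8034 bp. The low-listed hotspot nearest to Prdm9 on chromosome 17 was position 5782 (chr17:16127229-16127613), 426 kb away, with a match of score 16.6. The distance is that on the mm9 reference.

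The median GC content was the same in low-listed and top-listed hotspots. The central 200 bp had a median GC content of 45.0% in both (44.5 to 45.0%), against 49.5% (49.0 to 49.5%) in unmarked low-listed peaks. The ratio of observed to expected CpG dinucleotides had a median of 0.145 (0.136 to 0.153), against 0.154 (0.147 to 0.161) and 0.160 (0.152 to 0.168). A ratio of at least 0.65 was reached by 12 low-listed hotspots (0.494%) and by 3.37% of unmarked peaks. Top-listed hotspots reached it in 0.985%, a difference of -0.491 points (-0.907 to -0.0387), and the whole RJ2 list in 3.07%.

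The maps of the other genotypes touched few low-listed hotspots. The central 400 bp of a B6 DMC1 interval overlapped 13 of 2430 (0.535%, interval 0.285 to 0.913%), against 0.429% of top-listed hotspots and 0.527% of unmarked peaks. The first 3 in list order were position 5545 in an intron of Rbm33, position 5776 near Mcart1 and position 6065 on chromosome 3, and all 3 held a match to the motif learned from RJ2 peaks, with scores of 17.1, 17.8 and 11.4. Over the whole RJ2 list this share was 0.662%. B6-specific H3K4me3 overlapped 0 of 2430 (interval 0 to 0.152%). The rule asks for RJ2-specific H3K4me3, which the authors listed apart from B6-specific H3K4me3, so this count follows largely from the rule. Such overlap was rare throughout, with 24 of the 10121 listed peaks (0.237%), 0 of 3961 top-listed hotspots and 14 of 1898 unmarked peaks (0.738%). PRDM9 peaks of Spo11tm1M mice, which express PRDM9 Dom2, also overlapped 0 of 2430, against 25 of 10121 in the whole list (0.247%), 0 of 3961 top-listed hotspots and 7 of 1898 unmarked peaks (0.369%). The lists specific to B6 and RJ2 were separated by the authors, which bears on such overlaps. The authors removed peaks over Prdm9 knockout peaks, although 252 of the 10121 listed peaks overlap one by at least 1 bp. A Prdm9 knockout peak overlapped 81 of 1898 unmarked low-listed peaks (4.27%, interval 3.40 to 5.28%) and 11 of 3961 top-listed hotspots (0.278%). Among low-listed hotspots it overlapped 1 (0.0412%, interval 0.00104 to 0.229%). That hotspot, position 5294 in an intron of Pax5 (chr4:44554977-44555729), a gene of B cell development, had no central match, its best score being 0.979. It had a DMC1 interval of 1820 bp whose centre lay 369 bp away.

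The widest low-listed PRDM9 interval was 1162 bp, at position 5628 in an intron of AI314831 (chr2:104926453-104927614), and the narrowest was 236 bp, at position 7593 on chromosome 10 (chr10:33473332-33473567). Neither held a central match. The narrowest had a DMC1 interval of 1616 bp and an H3K4me3 interval of 1490 bp, the latter above the upper quartile of the low-listed hotspots.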

How the data were processed

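The authors mapped ChIP-seq reads to mm9 and deposited peak lists. Per the labels, their tools included CASAVA, Bowtie, Bowtie2, BWA and MACS2. PRDM9 peaks were limited by the irreproducible discovery rate between replicates and ranked on pooled reads, peaks over Prdm9 knockout peaks or shared by both strains were removed, and H3K4me3 peaks were split into common and strain-specific lists. The unit of the deposited lists is an interval position (start and end), with no score, and the read depth per interval is unknown. All 9 lists were read through their interval columns. H3K36me3 was not analysed here.

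Overlaps, widths and distances were computed with Python 3.11.15, NumPy 2.4.6, SciPy 1.17.1, numba 0.67.0 and pysam 0.24.0, on the mm9 sequence (indexed with samtools 1.23.1) and GENCODE vM1. The motif was learned in 8 rounds from a word of 8 bases, keeping the better 50% of training peaks, with flanking windows at 800 bp. Shares carry 95% Clopper-Pearson intervals, differences Newcombe intervals and medians order-statistic intervals. There was no hypothesis test, because peaks are not mice and replicates were pooled. The scripts were tested on simulated data.

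The hotspots, gene lists and comparisons were chosen with earlier results of these data known. Named sites are the first and last 3 in list order, extremes of width and score, and those over gene starts or other genotypes' peaks. The closest pair and sites at listed genes are also named, and chromosome 18 was left out of the choice by score. The GGCACA repeat, the width bands and the comparison of match scores and bases on even-numbered chromosomes and X were chosen after values were seen. Alternatives changed the overlap rules, the window, the limit and training chromosomes of the motif, the promoter distance and the chromosomes used.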

Additional observations from a re-analysis of the deposited data

How the results depend on the processing

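Of 41 alternative values, 15 stayed within the interval of the reported value, or within 1.5 times of a count, 17 moved past it and 9 reversed the sign of a difference. The number of low-listed hotspots ranged from 2259 to 2469 under other overlap rules, and was 1007 in the last 25% of the list, a set with fewer rows by construction. The share with a motif match was 47.0% in 100 bp, 85.8% in 400 bp, 87.7% in the whole interval, 54.6% and 76.6% at limits of 1% and 10% of flanking windows, and 76.2% in the last 25%. The difference from top-listed hotspots was 1.93 points in 400 bp and 1.25 at the 1% limit. Chosen after seeing the data, the whole interval gave -5.47 points, and PRDM9 widths of 300 to 399, 400 to 499, 500 to 599 and 600 to 699 bp gave -10.4, 0.547, -19.8 and -32.2. On even-numbered chromosomes and X, on which the motif was not learned, these 5 values were -6.04, -9.98, -6.28, -21.3 and -29.0. The pooled comparison mixes widths, and low-listed peaks are narrower. In the last 25% the median DMC1 width was 1686 bp and the H3K4me3 width 1090 bp. Within 500 bp of a start lay 1.98%, within 2 kb 7.33%, and within 1 kb of protein-coding starts 2.55%. Median GC was 44.3% in the whole interval and 44.25% in 400 bp. No paired analysis was possible because the lists are pooled over replicates, and for the same reason no replicate could be left out. Widths stand in for signal, and peak calling limits them.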
